A study of Mus musculus with 30 samples.

Results

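The germline and meiosis genes Ddx4, Dazl, Sycp3, Mael, Tdrd12, Stk31, Hormad1, Asz1, Slc25a31 and Stag3 were followed in mouse stem cells and in the endoderm made from them. They were taken by name from the 19938 genes that the arrays measured with a probe set of their own, and all 10 were found. Hormad1 alone had more than 1 probe set, and the one with the higher mean over the arrays was used. RNA was measured on 30 Affymetrix arrays, with 3 biological replicates in each of 10 groups. On 18 arrays without amplification, cells of the iPS clones ST8 and ST5 and of an embryonic stem (ES) cell line, all C57BL/6x129SvJae, were measured at day 5 and at day 0. An iPS clone grows from a body cell that was made pluripotent again, and each of these clones stands for itself only. Day 5 cells had been differentiated and sorted as ckit+/Sox2dim, and day 0 cells were undifferentiated and sorted as Sox2bright. On the other 12 arrays RNA was amplified first. They hold foregut endoderm of E8.25 Swiss Webster embryos (ENDM1+, Epcam+, low side scatter), Epcam+ cells of such embryos that were ENDM1 negative, and ES cells at day 5 and day 0. No group carries a mutation or drug by its labels.

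Germ cells guard their genome against transposons with piRNAs, short RNAs that are made in granules beside the mitochondria. Later they enter meiosis, when a protein axis forms along each chromosome and the synaptonemal complex joins the homologues. Many genes for these tasks are silent in body cells, where methylation of their CpG-rich promoters is one known means of silencing. In mouse ES cells a Polycomb complex with Mga, Max and E2f6 is known to hold many of them low, yet transcripts of several are found there.

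Levels are log2 values of the authors' normalised expression, so a difference of 1 is a change by a factor of 2. Array medians lay between 5.5 and 5.57 without amplification and between 5.69 and 5.74 with it, and levels were compared only within a labelling. As a guide to dim readings, 1027 olfactory receptor genes, most of which are silent outside the nose, had their 95th percentile between 4.62 and 4.78 in the unamplified groups and between 5.35 and 5.43 in the amplified ones. Probe sets differ in background, so this level is only a guide. Dazl, Slc25a31 and Asz1 had means under it in every group. Ddx4, Sycp3, Mael, Tdrd12 and Stk31 had means above it in undifferentiated cells and under it in all other groups, so the sizes of their falls may be understated. Stag3 was above it throughout, and Hormad1 in all unamplified groups and in amplified ES cells at day 0. The groups carried the markers of their labels: of 14 pluripotency genes, 14 fell by day 5 in ST8, 14 in ST5 and 13 in ES cells, and 9 of 9 measured endoderm genes rose in each. The pluripotency list holds Sox2, which was used in the sort of both days. Within ST8 at day 5, replicate 2 stood apart, with Pou5f1 at 7.25 against 10.48 and 10.43 in the other arrays. Its endoderm marker Sox17 was higher, at 9.30 against 7.40 and 7.23, where the ST5 day 5 arrays read 8.99, 8.82 and 8.69. The other ST8 day 5 arrays were thus the less differentiated ones by these markers. Without replicate 2, 11 of the 14 pluripotency genes and 9 of 9 endoderm genes were called in ST8. ES day 5 replicate 1 was lower in Pou5f1 as well, at 8.41 against 9.64 and 9.61, and higher in Sox17, at 9.35 against 7.15 and 7.28. The same number was lower in Pou5f1 among the amplified ES day 5 arrays, at 7.72 against 8.92 and 8.82. The labels do not say whether both ES sets came from the same cultures, so the amplified set was not taken as independent of the other.

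At day 5, most of the germline genes were lower than at day 0 in every line. In ST8 10 of the 10 fell, in ST5 8 and in ES cells 9 (limma, Benjamini-Hochberg adjusted p under 0.05), and none rose. Without ST8 day 5 replicate 2, 9 fell in ST8, all but Asz1. Over all genes, the share that fell was 19.5% for ST8, 24.8% for ST5 and 19.7% for ES cells, and the share that rose was 21%, 23.2% and 18.9%. The 10 genes had a median difference of -1.61 in ST8, -1.56 in ST5 and -1.87 in ES cells, while that of all genes was -0.01, -0.04 and 0.02. Day 5 arrays lay below all day 0 arrays of the line in 10 genes in ST8, 10 in ST5 and 9 in ES cells, as they did in 24.8%, 30.1% and 23.5% of all genes. Tdrd12 had the largest difference of the 10 in each line, between -5.78 and -6.34, and Asz1 the smallest, between -0.02 and -0.20. In these bulk samples, fewer cells with a transcript and less of it per cell cannot be told apart. Where arrays were shifted to a common median, the split of calls over all genes moved to 3397 higher and 4961 lower in ST8 and 2965 and 4740 in ES cells, against 4178 and 3896 in ST8 and 3765 and 3924 in ES cells as deposited.

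**Figure D1:**
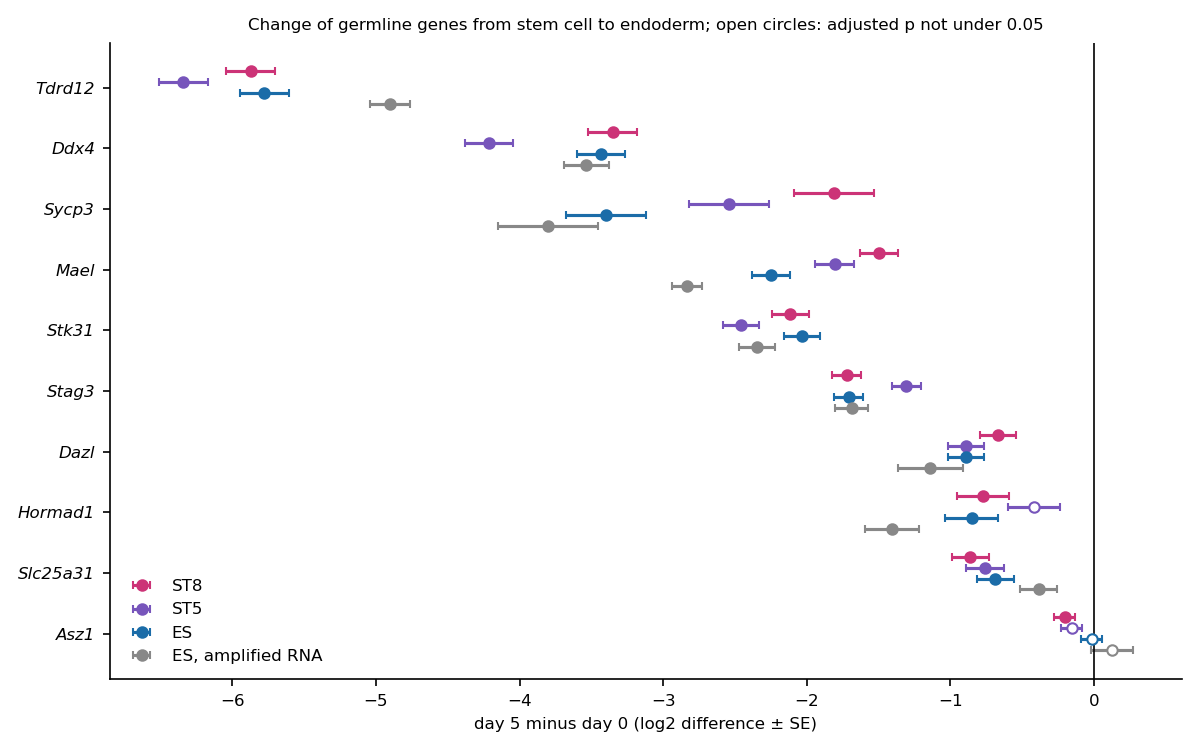
Day 5 minus day 0 for each germline gene, as a log2 difference with its standard error from the fit (horizontal axis), in ST8, ST5, ES cells and amplified ES cells, with 3 arrays on each side. Filled points passed an adjusted p of 0.05. Tdrd12, Ddx4, Sycp3, Mael, Stk31 and Stag3 lie more than 1 below 0 in all 4 sets, and Asz1 lies near 0.

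The starts of these genes share letters that the choice of members did not use. In the 300 bases around a start annotated for each gene (250 before and 50 after it, RefSeq, GRCm38.p6), CACGTG, which reads the same on both strands and is the core of an E-box, occurs in 7 of the 10 genes. Tdrd12, Stk31 and Hormad1 had 2 windows listed, and their other window was not searched. The first window listed for a gene was used. Its start lay at the outer end of the gene in 6 members and inside the gene by 33 bases in Stk31, 69 in Tdrd12, 323 in Ddx4 and 7995 in Stag3. The windows of Ddx4 and Stag3 therefore lie wholly inside the annotated gene, around an internal transcript start. Of 27025 such windows of all genes, 7.24% hold it, and of the 9857 with a CpG ratio of 0.6 or more, 11.4% do. GGCGGGA, on either strand, the core of many E2F sites, occurs in 4 of the 10 genes, against 11.4% of all windows and 25% of the CpG-rich ones. The same 4 genes hold both, namely Ddx4, Mael, Hormad1 and Slc25a31, against 1.23% and 2.86%. Both letter strings were searched because the Polycomb complex named above holds proteins of these families, and a match is a description of letters only. The CpG ratio was 0.41 in Tdrd12 and between 0.67 and 1.06 in the other members. Shown are the 250 bases before the internal start of Ddx4 (chr13:112652311-112652560, minus strand), with both strings. Those before the start used for Tdrd12 (chr7:35537716-35537965, minus strand), the gene with the largest fall, hold neither. For the other members with CACGTG, 60 bases around it are shown. The capitals mark the 2 searched strings.
Ddx4: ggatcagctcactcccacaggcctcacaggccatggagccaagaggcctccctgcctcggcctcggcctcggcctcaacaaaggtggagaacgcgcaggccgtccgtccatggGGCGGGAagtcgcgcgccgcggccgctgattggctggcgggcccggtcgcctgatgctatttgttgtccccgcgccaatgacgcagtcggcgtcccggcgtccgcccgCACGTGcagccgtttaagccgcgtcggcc
Tdrd12: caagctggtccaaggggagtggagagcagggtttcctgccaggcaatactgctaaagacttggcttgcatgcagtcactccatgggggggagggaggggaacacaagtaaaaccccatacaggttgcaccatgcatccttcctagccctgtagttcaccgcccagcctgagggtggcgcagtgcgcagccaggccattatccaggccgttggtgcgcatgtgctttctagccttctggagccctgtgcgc
Sycp3, chr10:88459517-88459576, plus strand: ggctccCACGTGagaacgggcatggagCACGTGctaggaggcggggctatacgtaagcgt
Hormad1, chr3:95559617-95559676, plus strand: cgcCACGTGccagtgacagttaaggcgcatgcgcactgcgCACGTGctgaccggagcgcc
Stk31, chr6:49395457-49395516, plus strand: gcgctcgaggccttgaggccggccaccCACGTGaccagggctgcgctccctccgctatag
Slc25a31, chr3:40708751-40708810, plus strand: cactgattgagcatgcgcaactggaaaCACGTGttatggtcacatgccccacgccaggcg
Stag3, chr5:138280312-138280371, plus strand: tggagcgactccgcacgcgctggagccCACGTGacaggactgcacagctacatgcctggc
Mael, chr1:166238935-166238994, minus strand: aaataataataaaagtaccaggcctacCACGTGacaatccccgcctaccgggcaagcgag
CACGTG began 29 bases before the internal start in Ddx4. It began 64 and 43 bases before the start in Sycp3, 57 and 20 in Hormad1, 55 in Stk31 and 93 in Slc25a31. In Mael it lay further out, at 223, and in Stag3 at 170 from the internal start. Dazl, Tdrd12 and Asz1 lack CACGTG in this window. Whether the string bears on the change at day 5 was not tested.

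Tdrd12, Ddx4, Mael, Stk31 and Asz1 belong to the piRNA machinery and its granules or carry the Tudor domain common there. Tdrd12, a Tudor domain protein needed for piRNA production in the mouse testis, read 4.75, 4.10 and 4.79 in ST8 cells at day 5, against 10.43, 10.44 and 10.37 at day 0. In ST5 it read 4.27, 3.88 and 3.91 at day 5, against 10.20, 10.17 and 10.72 at day 0. ES cells had 4.42, 4.67 and 4.53 at day 5, against 10.44, 10.29 and 10.22 at day 0. No day 5 array came near any day 0 array, and the differences were -5.87 ± 0.17 in ST8 (-5.65 without ST8 day 5 replicate 2), -6.34 ± 0.17 in ST5 and -5.78 ± 0.17 in ES cells (adjusted p = 3.61e-13, 2.01e-13 and 6.13e-13). The day 5 means lay under the olfactory level, so these values do not settle how far the transcript fell.

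Ddx4 encodes the vasa RNA helicase, the classical mark of germ cells from the late primordial germ cell on. Its level was 4.73, 3.99 and 4.79 in ST8 at day 5, against 7.96, 7.86 and 7.74 at day 0. ST5 had 4.18, 4.27 and 4.11 at day 5, against 8.45, 8.19 and 8.55 at day 0. In ES cells the values were 3.98, 4.16 and 4.39 at day 5, against 7.69, 7.44 and 7.71 at day 0. The days were fully apart in each line, with differences of -3.35 ± 0.17 in ST8, -4.21 ± 0.17 in ST5 and -3.43 ± 0.17 in ES cells (± SE). Without ST8 day 5 replicate 2, the lowest of its group, the ST8 difference was -3.10.

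Mael, which acts in transposon silencing, and Stk31, a testis protein with a Tudor and a kinase domain, changed less. Mael read 3.35, 3.33 and 3.21 in ST8 at day 5, against 4.79, 4.95 and 4.64 at day 0. ST5 had 3.19, 3.40 and 3.16 at day 5, against 4.97, 5.08 and 5.12 at day 0. In ES cells it read 3.01, 3.29 and 3.31 at day 5, against 5.65, 5.07 and 5.63 at day 0. No day 5 array reached a day 0 array of its line, and the fall of Mael was -1.50 ± 0.13 in ST8, -1.81 ± 0.13 in ST5 and -2.25 ± 0.13 in ES cells. For Stk31 all 9 day 5 arrays lay between 2.90 and 3.30, and all 9 day 0 arrays between 5.00 and 5.92. Its differences were -2.11 ± 0.13 in ST8, -2.46 ± 0.13 in ST5 and -2.03 ± 0.13 in ES cells.

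Asz1, a germ granule protein that holds mitochondria together in spermatocytes, stayed between 2.28 and 2.73 on all 18 arrays. The difference in ST8 was -0.20 ± 0.07 (adjusted p = 0.0338). Leaving out ST8 day 5 replicate 2 or 3 or ST8 day 0 replicate 3 ended this call (adjusted p = 0.102, 0.0888 and 0.141). A fit of all 30 arrays and a fit of the compared groups only ended it too (adjusted p = 0.173 and 0.0741). In ST5 the difference was -0.15 (95% interval -0.31 to 0.00, adjusted p = 0.0952) and in ES cells -0.02 (-0.17 to 0.14, adjusted p = 0.904).

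Sycp3, Stag3 and Hormad1 build the meiotic chromosome axis. Sycp3, the core of the lateral element of the synaptonemal complex, read 4.32, 3.33 and 4.52 in ST8 at day 5, against 5.72, 6.10 and 5.78 at day 0. ST5 had 3.34, 3.35 and 3.17 at day 5, against 5.65, 5.46 and 6.37 at day 0. ES cells had 2.65, 3.26 and 3.28 at day 5, against 6.51, 6.15 and 6.73 at day 0. The days did not overlap in any line, while ST8 had the highest day 5 arrays and ES cells the highest at day 0. The fall was -1.81 ± 0.28 in ST8 (-1.45 without ST8 day 5 replicate 2), -2.54 ± 0.28 in ST5 and -3.40 ± 0.28 in ES cells.

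Stag3, the cohesin subunit made for meiosis, read 6.49, 6.71 and 6.39 in ST8 at day 5, against 8.30, 8.26 and 8.20 at day 0. ST5 read 6.22, 6.45 and 6.34 at day 5, against 7.5, 7.61 and 7.82 at day 0. ES cells had 6.55, 6.40 and 6.44 at day 5, against 8.30, 8.02 and 8.19 at day 0. The days were apart in every line, and the differences were -1.72 ± 0.10, -1.31 ± 0.10 and -1.71 ± 0.10 in ST8, ST5 and ES cells. Of the cohesin subunits used in every dividing cell, Stag2 rose by 0.54 in ES cells, while Stag1 and Smc3 fell by 0.30 and 0.35.

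Hormad1, an axis protein that marks unpaired chromosomes, read between 4.94 and 5.28 in ST8 at day 5, against 5.80 to 6.01 at day 0, and between 4.67 and 5.52 in ES cells at day 5, against 5.82 to 6.20 at day 0. It fell by 0.78 in ST8 and 0.85 in ES cells. In ST5 it read 5.37, 5.33 and 5.47 at day 5, against 5.67, 5.58 and 6.16 at day 0, which did not overlap but missed the threshold (-0.41 ± 0.18, adjusted p = 0.0716). Another probe set that the platform annotation gives to Hormad1, with a lower mean, gave wider differences, but which locus it reads was not checked. Its means were 2.18, 2.08 and 2.14 in ST8, ST5 and ES cells at day 5, against 3.0, 3.25 and 3.76 at day 0, and read through it the ST5 difference was -1.17 (adjusted p = 4.19e-05).

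Dazl, an RNA-binding protein that germ cells need to commit to their fate, moved within a narrow range. It read 3.47, 3.47 and 3.42 in ST8 at day 5, against 4.05, 4.25 and 4.06 at day 0. It read 3.39, 3.39 and 3.55 in ST5 at day 5, against 3.94, 4.41 and 4.65 at day 0, and 3.40, 3.18 and 3.44 in ES cells at day 5, against 4.24, 4.23 and 4.22 at day 0. The difference was -0.67 ± 0.13 in ST8, -0.89 ± 0.13 in ST5 and -0.89 ± 0.13 in ES cells. Slc25a31, the ADP/ATP carrier that replaces its X-linked relative in male germ cells, read between 2.94 and 3.47 on the 9 day 5 arrays and between 3.67 and 4.09 on the 9 day 0 arrays. Its difference was -0.86 ± 0.13 in ST8, -0.76 ± 0.13 in ST5 and -0.69 ± 0.13 in ES cells. Both genes had day 5 arrays below every day 0 array of the same line, yet their means lay under the olfactory level on both days, and no fold is given for them. The somatic carriers went opposite ways in ES cells, with Slc25a4 higher by 0.65 and the X-linked Slc25a5 lower by 0.82.

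**Figure D2:**
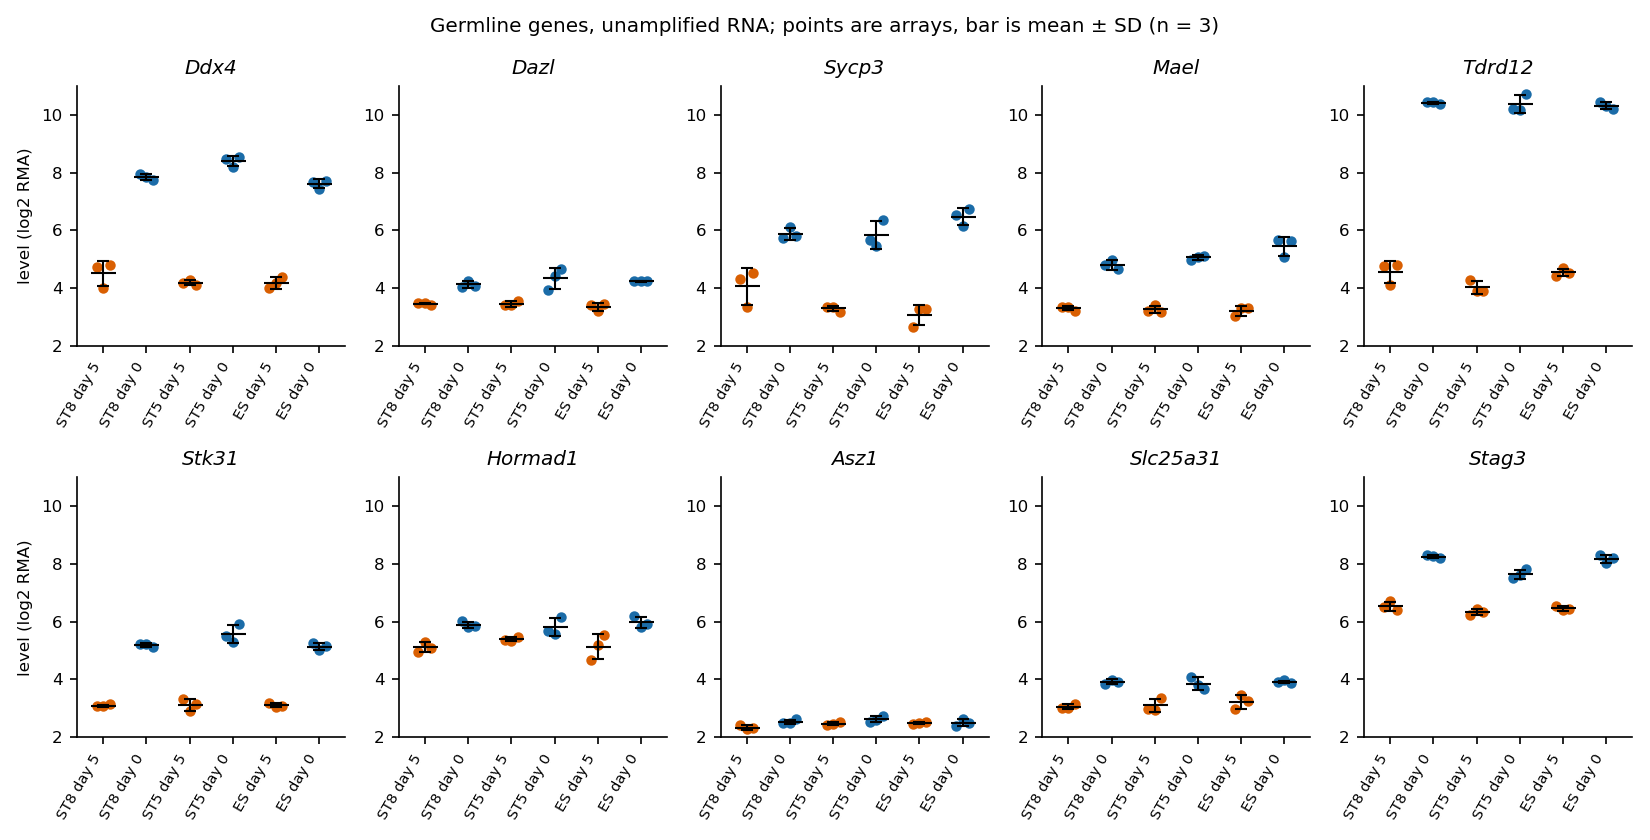
Level of each germline gene (log2, vertical axis) on the 18 unamplified arrays, by line and day. Points are arrays (orange day 5, blue day 0) and bars give the mean and SD of 3 arrays. Day 5 lies below day 0 in Tdrd12, Ddx4, Sycp3, Mael, Stk31 and Stag3, while Asz1 stays between 2.28 and 2.73; levels of different genes cannot be set against each other.

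Between undifferentiated lines the differences were small. ST5 differed from ES cells in 2 of the 10 genes, against 3.22% of all genes: Ddx4 was higher by 0.79 ± 0.17 (adjusted p = 0.0159) and Stag3 lower by 0.53 ± 0.10 (adjusted p = 0.00645). Without ES day 0 replicate 2, ST5 day 0 replicate 1 or ST5 day 0 replicate 3 the adjusted p of Ddx4 was 0.0782, 0.0583 and 0.0725. ST8 differed from ES cells in Mael, lower by 0.66 ± 0.13 (adjusted p = 0.0108; 3.55% of all genes were called), and without ES day 0 replicate 1 or 3 or ST8 day 0 replicate 3 that adjusted p was 0.0657, 0.0603 and 0.0600. Between the clones, Stag3 was higher in ST8 than in ST5 by 0.61 ± 0.10 (adjusted p = 0.0302), 1 of 13 genes called among all, or 0.0652%. Leaving out any single array of either clone other than ST5 day 0 replicate 3 ended that call, with adjusted p between 0.118 and 0.246.

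Ordered by mean, Ddx4 at day 0 stood highest in ST5, then ST8, then ES cells, and neither step between neighbours passed the test (adjusted p = 0.367 and 0.527). Mael stood highest in ES cells, then ST5, then ST8, again with no step between neighbours past it (adjusted p = 0.153 and 0.663). Tdrd12 differed by at most 0.10 between the means of the lines at day 0, with 95% intervals within -0.32 and 0.46. Another synaptonemal gene outside the 10, Sycp1, read 5.49 in ST8 and 5.29 in ST5 at day 0, against 3.07 in ES cells, and lay between 2.37 and 2.43 in the means of the lines at day 5. Meiosis genes outside the 10 did not share this rise as a list. Of 28 measured, 3 were higher and 3 lower in ST8 than in ES cells at day 0 (median -0.04). In ST5 2 were higher and 4 lower than in ES cells (median -0.13). Of all genes, 3.55% and 3.22% were called in these comparisons.

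At day 5, Tdrd12 was lower in ST5 than in ES cells by 0.52 ± 0.17 (adjusted p = 0.0376), the only one of the 10 called in this comparison, in which 23.3% of all genes were. Both means, 4.02 in ST5 and 4.54 in ES cells, lay under the olfactory level. Its call was lost without ES day 5 replicate 2 or 3 or ST5 day 5 replicate 2 or 3 (adjusted p = 0.135, 0.102, 0.120 and 0.112). For ST8 against ES cells limma called 0 of the 10 (0.958% of all genes), with Sycp3 and Asz1 at an unadjusted p under 0.05. For ST8 against ST5 it called 0 as well (14.6% of all genes), with Sycp3 and Tdrd12 at an unadjusted p under 0.05. Of all genes, 15.8% and 30.1% were at such an unadjusted p in these comparisons. Sycp3 was higher in ST8 than in ES cells by 0.99 (95% interval 0.40 to 1.58, adjusted p = 0.106), with both means, 4.05 and 3.06, under the olfactory level.

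ST8 day 5 replicate 2 weighed on these comparisons. It was the lowest ST8 day 5 array for Ddx4, Sycp3 and Tdrd12, by 0.74, 0.99 and 0.65 below the next, and also for Pou5f1 and Nanog (6.85 against 9.93 and 9.84). Without it, ST8 was higher than ES cells in Ddx4 by 0.58 (adjusted p = 0.0135) and in Sycp3 by 1.36 (adjusted p = 0.00423). Against ST5 it was then higher in Ddx4 by 0.57, in Sycp3 by 1.13 and in Tdrd12 by 0.75 (adjusted p = 0.00219, 0.00180 and 0.00107). These fits left out the ST8 day 5 array highest in Sox17 but kept the ST5 arrays and ES day 5 replicate 1, which were high too. Line and degree of differentiation therefore cannot be told apart in them. For Stk31, Slc25a31 and Asz1 replicate 2 was also the lowest, but by at most 0.03, and for Mael, Dazl, Hormad1 and Stag3 it was not (Stag3 read 6.71, against 6.49 and 6.39 in the other ST8 day 5 arrays). Without it the ST8 day 5 minus day 0 differences of the members not yet given were -1.51 in Mael, -2.10 in Stk31, -1.81 in Stag3, -0.86 in Hormad1, -0.68 in Dazl and -0.84 in Slc25a31. Without it, too, 17 of 28 other meiosis genes fell and 2 rose in ST8, and 6 of 17 piRNA genes fell and 3 rose. Of 13 primordial germ cell genes 7 fell, and of 12 fibroblast markers 10. Whether the share of cells that were still undifferentiated moved these values was not tested.

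**Figure D3:**
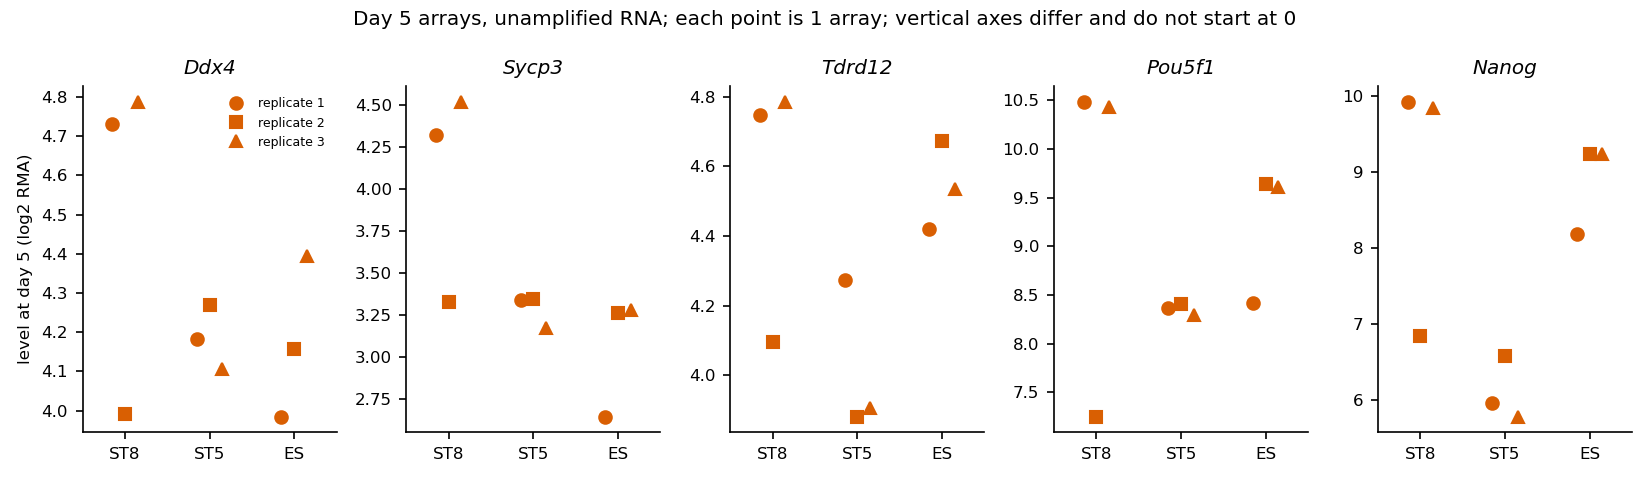
Level at day 5 (log2, vertical axis, scaled for each gene) of Ddx4, Sycp3 and Tdrd12 beside the pluripotency genes Pou5f1 and Nanog on the 9 unamplified day 5 arrays, with 1 symbol for each replicate number. Replicate 2 of ST8 lies lowest in its group in all 5 genes, for Ddx4 at 3.99 against 4.73 and 4.79.

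Whether the fall itself differed between lines was tested as the difference of the day 5 minus day 0 differences. Limma called 0 of the 10 for ST5 minus ES cells (5.58% of all genes called), with 6 at an unadjusted p under 0.05, and 0 for ST8 minus ES cells (0.838%), with 2. For ST8 minus ST5 it also called 0 (2.17%), again with 2. Of all genes, 24.1%, 10.8% and 20.8% were at an unadjusted p under 0.05 in limma, in the same order. The widest was Sycp3, whose fall was smaller in ST8 than in ES cells by 1.59 (95% interval 0.75 to 2.42, adjusted p = 0.0761). Mael fell less in ST8 than in ES cells by 0.75 (0.35 to 1.15, adjusted p = 0.0797), and Ddx4 fell further in ST5 than in ES cells by 0.78 (-1.29 to -0.28, adjusted p = 0.0630).

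Leaving out any of 3 arrays changed these tests. Without ST8 day 5 replicate 2, Sycp3 passed for ST8 minus ES cells (1.95, adjusted p = 0.00323), and Ddx4, Sycp3, Tdrd12 and Stag3 passed for ST8 minus ST5 (1.12, 1.09, 0.69 and -0.50). Line and degree of differentiation cannot be told apart in these fits either. Without ES day 0 replicate 2, Mael passed for ST5 minus ES cells (0.63, adjusted p = 0.0301) and for ST8 minus ES cells (0.94, adjusted p = 0.00690). Without ES day 5 replicate 1, Ddx4 passed for ST5 minus ES cells (-0.88, adjusted p = 0.0258).

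On amplified RNA, 9 of the 10 genes fell in ES cells, all but Asz1, where 13.8% of all genes fell. Sycp3 read 3.47, 4.76 and 4.98 at day 5, against 8.33, 8.02 and 8.28 at day 0. Ddx4 read 4.14, 4.46 and 4.80 at day 5, against 8.0, 8.21 and 7.80 at day 0. The difference was -3.80 ± 0.35 for Sycp3, -3.53 ± 0.16 for Ddx4 and -4.90 ± 0.14 for Tdrd12. Slc25a31 was called by a small margin (-0.39 ± 0.13, adjusted p = 0.0435), and leaving out any array but ES day 5 replicate 1 ended it (adjusted p between 0.0696 and 0.143). Further quantile normalization ended this call too (adjusted p = 0.0581).

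Most of the germline genes were lower in the embryo than in undifferentiated ES cells. In foregut endoderm 8 of the 10 were lower than in ES cells at day 0 (14.2% of all genes were), and in ENDM1-negative cells 8 were too (11.1%), in both cases all but Asz1 and Slc25a31. Tdrd12 read 4.62, 4.56 and 4.54 in foregut, against 9.99, 9.64 and 9.89 in ES cells at day 0. Stag3 read 5.44, 5.63 and 5.49 in foregut, against 8.02, 7.70 and 7.80 in ES cells at day 0. Embryo and culture also differ in strain and in the kit used for RNA extraction, and these cannot be told apart.

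Foregut differed from ES cells at day 5 in Stag3 alone, lower by 0.64 ± 0.12 (adjusted p = 0.00181; 24.2% of all genes were called). Without amplified ES day 5 replicate 1, Tdrd12 was called too, lower by 0.51 (adjusted p = 0.0126), though its means in both groups lay under the olfactory level. ENDM1-negative cells differed from ES cells at day 5 in 3 of the 10 (26.3% of all genes): Stag3 was lower by 0.71, Mael higher by 0.46 and Stk31 higher by 0.39. Mael and Stk31 lay under the olfactory level in both groups, as did the means of Ddx4 and Sycp3 over all 3 arrays. Stk31 lost its call without ENDM1-negative replicate 2 or any single ES day 5 array (adjusted p between 0.0604 and 0.145). Further quantile normalization, a shift to a common median and a fit of the compared groups only ended it too (adjusted p = 0.0607, 0.0645 and 0.0574). Ddx4 was called without ENDM1-negative replicate 2 or ES day 5 replicate 3, higher by 0.54 and 0.58 (adjusted p = 0.0367 and 0.0157), and Sycp3 without ENDM1-negative replicate 2, higher by 1.06 (adjusted p = 0.0369).

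Within the embryo, Tdrd12 read 4.62, 4.56 and 4.54 in foregut, against 5.30, 5.09 and 4.91 in ENDM1-negative cells. It was the only one of the 10 called between them, lower in foregut by 0.53 ± 0.14 (adjusted p = 0.0355), where 8.14% of all genes were called, and its means in both groups lay under the olfactory level. With the replicate number as a block, the adjusted p was 0.0587. The call was also lost without any single foregut array or without ENDM1-negative replicate 1 or 2 (adjusted p between 0.0838 and 0.131). Sycp3 read 4.30, 4.54 and 4.45 in foregut, against 5.40, 4.36 and 5.53 in ENDM1-negative cells, which overlapped (-0.67 ± 0.35, adjusted p = 0.287).

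**Figure D4:**
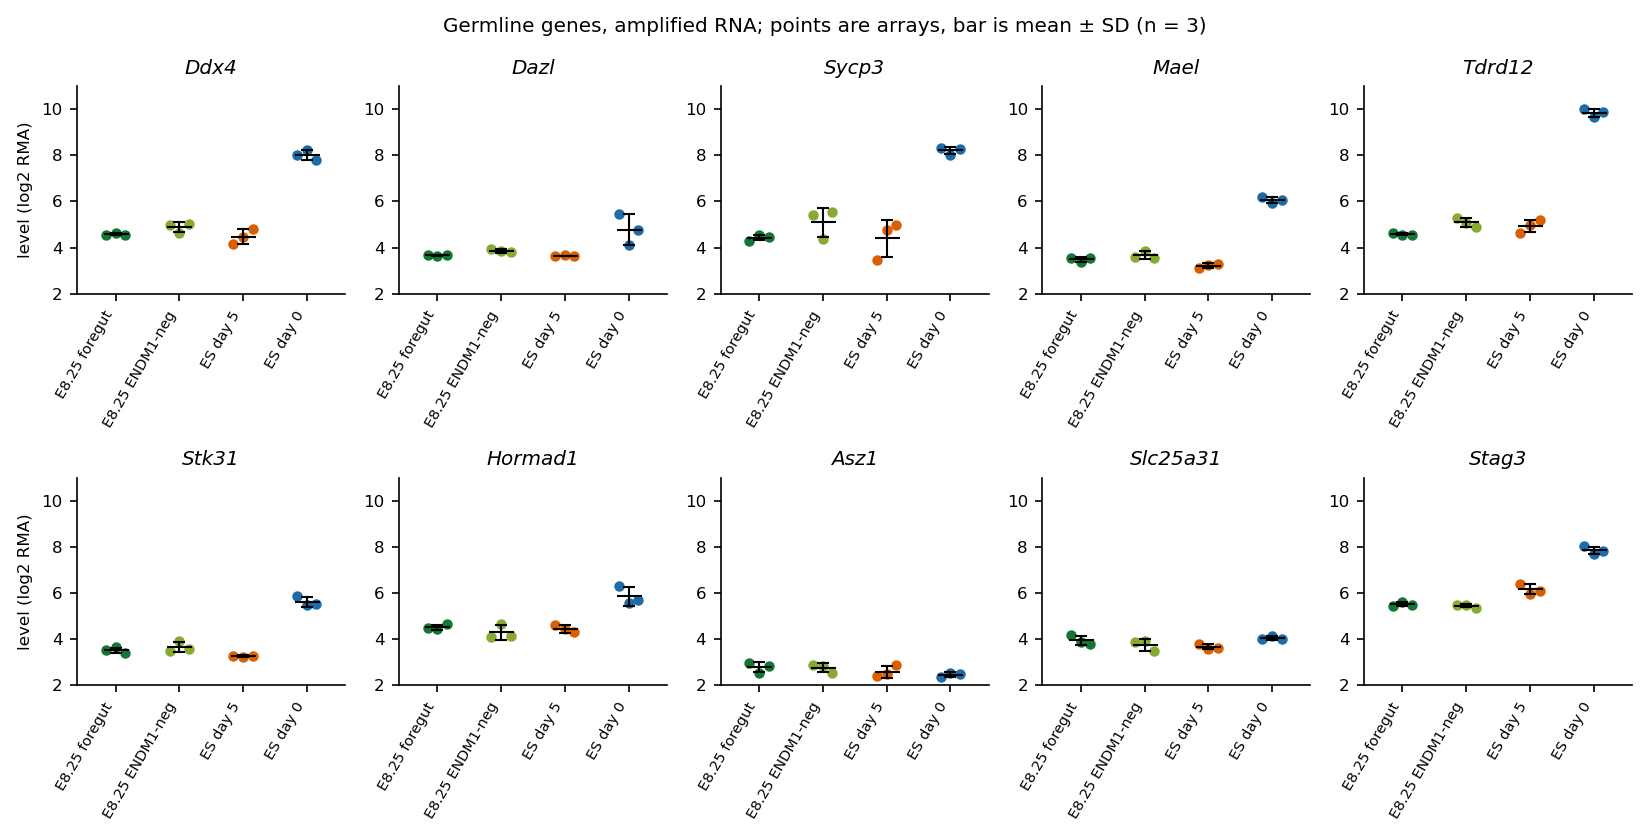
Level of each germline gene (log2, vertical axis) on the 12 amplified arrays, for foregut, ENDM1-negative cells, ES day 5 and ES day 0. Points are arrays and bars the mean and SD of 3 arrays. In Tdrd12, Ddx4, Mael, Stk31 and Stag3 both embryo groups and ES day 5 lie far below ES day 0, and Asz1 and Slc25a31 differ little.

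Some other germ cell genes were also lower in foregut than in ENDM1-negative cells. Of 13 genes that mark primordial germ cells, 4 were lower and none higher, against 4.43% of all genes called lower and 3.71% called higher. The lower ones were Pou5f1 (-2.25), Dppa3 (-1.83), Tfap2c (-1.50) and Alpl (-0.46). The other 9 were not called, and the median of the list was -0.05, against 0.01 over all genes. Kit and Prdm1, among these 9, read higher on every foregut array than on any ENDM1-negative array. Of 19 further germ cell genes 3 were lower, the X-linked homeobox genes Rhox9 (-3.57) and Rhox6 (-2.37), and Tex19.1 (-0.95), which curbs transposons. Among 17 piRNA and granule genes outside the 10, Rnf17, a Tudor protein of germ granules, was lower (-0.83) and Tdrd5 higher (0.51). Pluripotency genes, which share Pou5f1, Nanog and Dppa3 with the primordial germ cell list, were also lower in foregut, 6 of 14, with 1 higher and a median of -0.36. How far germ cells or other cells with these transcripts entered the ENDM1-negative gate was not tested.

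More genes of meiosis were lower at day 5 as well. Over all genes, 19.5% fell in ST8, 24.8% in ST5 and 19.7% in ES cells, and 21%, 23.2% and 18.9% rose. Of 28 other measured genes of the meiotic axis and of recombination, 17 fell and 3 rose in ST8, 18 fell and 2 rose in ST5, and 18 fell and none rose in ES cells, with medians of -0.44, -0.43 and -0.48. The largest falls in ES cells were those of Six6os1 (-3.0), a central element protein of the synaptonemal complex, Dmc1 (-2.44), the meiotic strand exchange protein, and Meioc (-2.31), which sustains meiotic prophase. Spo11, which cuts DNA to start recombination, and Stra8, the switch into meiosis, gave -0.03 and 0.09 in ES cells and did not pass. Of 19 other germ cell genes, 10 fell in ST8, 12 in ST5 and 11 in ES cells and none rose, led in ES cells by Tex15 (-2.44), Tex14 (-2.32) and Tex19.1 (-1.37).

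Among 17 other piRNA and germ granule genes, 6 fell and 3 rose in ST8, 7 fell and 1 rose in ST5, and 7 fell and 3 rose in ES cells. Of all genes 19.5%, 24.8% and 19.7% fell and 21%, 23.2% and 18.9% rose in ST8, ST5 and ES cells, so the rises in this list were no more frequent than over all genes. Rnf17 fell by 3.38 in ES cells, and Piwil2, a Piwi protein that binds piRNAs, and Mov10l1, the helicase that starts their production, fell by 1.48 and 1.13. Tdrd7, Tdrkh and Ddx25 rose in ES cells by 1.48, 0.91 and 0.59. The median of this list was -0.12 in ES cells, against 0.02 over all genes.

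Few genes of finished gametes were called, where 19.7% of all genes fell and 18.9% rose in ES cells. The spermatid and oocyte lists had mean levels of 4.57 and 4.05 in ES cells at day 0. Both lay under the olfactory level of 4.72, so the sizes of falls in these lists may be understated. A list mean does not give the level of each gene, and Dazl and Slc25a31 were called lower in ES cells from under that level. Of 12 spermatid genes limma called 1 higher in ST8, 1 higher in ST5 and 0 in ES cells, where 0 were at an unadjusted p under 0.05 as well. Of 10 oocyte genes 1 rose and 1 fell in ES cells. Of 6 Sertoli cell genes, which mark the somatic cells of the testis, 1 rose and 1 fell in ES cells, near the shares over all genes. Of 13 primordial germ cell genes 8 fell and none rose in ST8, 10 fell and 2 rose in ST5, and 9 fell and 1 rose in ES cells, but this list holds Pou5f1 and Nanog, which stem cells share, and Kit, which was used in the sort. Dppa3, another of them, fell by 3.84 in ST8, 4.04 in ST5 and 3.14 in ES cells.

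**Figure D5:**
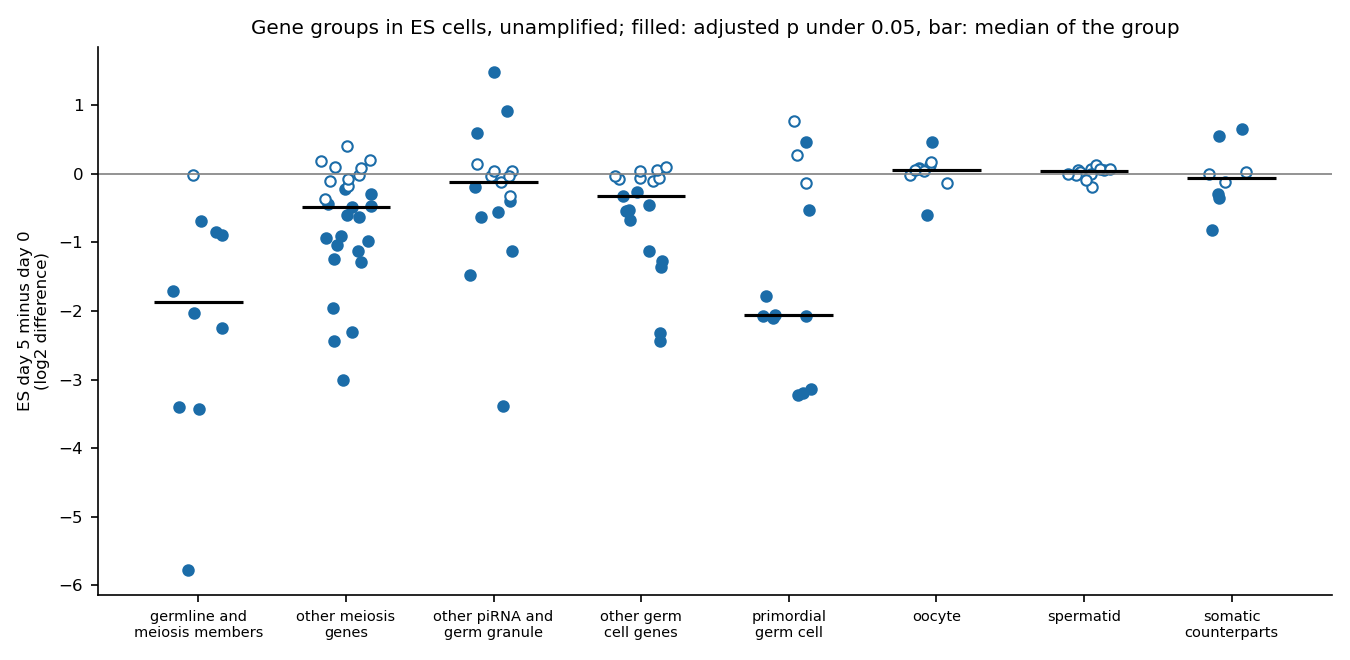
Day 5 minus day 0 in unamplified ES cells (log2 difference, vertical axis) for the 10 germline genes and 7 other gene groups. Each point is a gene, filled where it passed an adjusted p of 0.05, and the bar is the group's median: -1.87 for the 10 genes, -0.48 for other meiosis genes and 0.04 for spermatid genes.

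Over the 18 unamplified arrays, the genes whose values most resembled the mean of the 10 were Hsf2bp (Pearson r = 0.998), Dppa4 (0.996), Fbxo15 (0.995), Jam2 (0.995) and Rnf17 (0.995). These arrays form a day 0 and a day 5 cluster, so any gene that fell evenly by day 5 scores high, and the value is a description. Hsf2bp, a partner of recombination proteins in meiosis, fell by 3.44 in ST8, 3.82 in ST5 and 3.90 in ES cells. Of the 10, Tdrd12 lay closest to their common mean (0.996) and Asz1 furthest (0.56). Each member is part of that mean and enters it unscaled, so members with large differences, such as Tdrd12, weigh most in it. Around the means of their groups, the correlations of the 45 pairs of members ran from -0.54 (Slc25a31 and Stag3) to 0.87 (Ddx4 and Sycp3). The next highest was 0.80 for Sycp3 and Tdrd12, and ST8 day 5 replicate 2 was the lowest ST8 day 5 array for Ddx4, Sycp3 and Tdrd12.

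Of 14 genes of the Polycomb complex with Mga, Max and E2f6, 7 fell and 4 rose in ES cells, with L3mbtl2 lower by 1.05 and Yaf2 higher by 1.0. This complex is one known to silence germline genes. Of 10 genes of histone H3K9 and DNA methylation, 6 fell and 1 rose, where 19.7% of all genes fell and 18.9% rose. Dnmt3l, the cofactor of the de novo DNA methyltransferases, fell by 5.27 in ST8, 5.05 in ST5 and 5.33 in ES cells. Whether these changes bear on the 10 genes was not tested.

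Fibroblast markers fell alongside the germline genes. By day 5, 11 of 12 fell in ST8, 9 in ST5 and 10 in ES cells, and none rose. Over all genes, 19.5%, 24.8% and 19.7% fell, in the same order. The mean level of the 12 markers was 5.94 ± 0.09 in ST8, 5.93 ± 0.10 in ST5 and 6.12 ± 0.24 in ES cells at day 5 (SD, n = 3 each). At day 0 it was 8.10 ± 0.15 in ST8, 8.13 ± 0.11 in ST5 and 7.87 ± 0.17 in ES cells. Array levels have no true 0, and the part of such cells in the falls of the 10 genes was not tested.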

How the data were processed

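RNA was measured on Affymetrix Mouse Gene 1.0 ST arrays. The authors deposited log2 values for each probe set, made with RMA per the submitters' processing notes. The RMA version, and whether both labellings were processed together, are not given in the sources used here. RMA shares strength across probes and compresses low signals, so folds of dim genes may be understated. Of 35556 probe sets, 21789 named 1 gene in the platform annotation, 1621 named several and 12146 were not listed; where 999 genes had more than 1, the one with the highest mean was kept. No array was left out, and array number limits the precision.

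Groups were compared in R 4.3.3 with limma 3.58.1 (tables were read with the data.table package, version 1.17.8), with a mean per group, in the 18 unamplified arrays (12 residual degrees of freedom) and the 12 amplified arrays (8) apart. Tests were two-sided and adjusted by Benjamini-Hochberg over all 19938 genes, with calls at 0.05, and the procedure was tested on simulated data. SE come from the fits and SD from 3 arrays. The labels call the samples biological replicates, of 1 line each. Where a p is adjusted, the sentence refers to limma. Six6os1 was found under its older symbol.

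The members and gene lists were chosen with earlier results of these data known. Named genes are all members, up to 3 called rises and falls from each list, sorting and lineage markers, and the 5 genes most like the members' mean; Spo11, Stra8, Sycp1, Alpl, Dnmt3l beyond ES cells and Hsf2bp's falls were picked with values in view. Alternatives were other sample sets, normalisations, filters, probe set rules, variance models, the replicate number as a block and leaving out each array. Hormad1's other probe set, the gene list counts without ST8 day 5 replicate 2, and the olfactory level were added after seeing the data.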

Additional observations from a re-analysis of the deposited data

How the results depend on the processing

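No difference of the 10 genes changed its direction past a threshold under the alternatives run: 2665 values kept their side of it, 43 fell short and 40 newly passed. Leaving out genes under the median level keeps only 3 of the 10 in the unamplified and 2 in the amplified fit, by construction. It called 3 in ES cells, ST5 and ST8 at day 5 against day 0, 2 in amplified ES cells, 2 in foregut and in ENDM1-negative cells against ES day 0, and 1 in ENDM1-negative cells against ES day 5. It also called 0 for ST8 against ES cells at day 0 and 1 each for ST8 against ST5 at day 5, the ST5 minus ES response and the ST8 minus ST5 response. With only the groups compared in the fit, 2 were called for ST8 against ES cells and 0 for ST8 against ST5 at day 0, and 1 for the ST5 minus ES response. With all 30 arrays in a fit, 1 was called for ST8 against ST5 at day 5 and 1 for the ST8 minus ES response. Further quantile normalization and shifting arrays to a common median each called 0 for ST5 against ES cells at day 5 and 2 for foregut against ES day 5; the quantile step called 1 for the ST8 minus ST5 response. Hormad1's other probe set gave 2 for ST8 against ES cells at day 0 and 2 for foregut against ES day 5. With the replicate block, 0 were called for ST8 against ST5 at day 0 (Stag3, adjusted p = 0.0735) and 0 for foregut against ENDM1-negative cells; no other call changed. Same-numbered unamplified arrays correlated between -0.65 and 0.50 in their deviations from group means, over 0.1 in 9 of 45 pairs. Arrays of different number did so between -0.69 and 0.72, over 0.1 in 13 of 90 pairs. With ranges this wide the check cannot settle whether the numbers pair the samples. The cause of the changes in calls was not tested.

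Leaving out single arrays, the counts ranged from 9 to 9 in ES cells, 8 to 9 in ST5 and 9 to 10 in ST8 for day 5 against day 0, and from 8 to 9 in amplified ES cells. At day 0 they ranged from 1 to 3 for ST5 and 0 to 1 for ST8 against ES cells, and from 0 to 1 for ST8 against ST5. At day 5 they ranged from 0 to 1 for ST5 and 0 to 2 for ST8 against ES cells, and from 0 to 3 for ST8 against ST5. The responses gave 0 to 1 for ST5 minus ES, 0 to 1 for ST8 minus ES and 0 to 4 for ST8 minus ST5. In the embryo the ranges were 0 to 1 for foregut against ENDM1-negative cells, 1 to 2 for foregut and 2 to 4 for ENDM1-negative cells against ES day 5, and 8 to 9 and 8 to 8 against ES day 0.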
